A study of Drosophila melanogaster with 2 samples.

Results

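The regions listed for Hr38, a nuclear receptor of the Nr4a type in Drosophila melanogaster, were read here at the genes of glycolysis. The 10 glycolytic enzyme genes were chosen by name from 13968 protein-coding genes of the Ensembl annotation. No measured value was used in the choice, but earlier results of these data were known when it was made. They run in the order of the pathway from Pgi through Pfk, Ald1, Tpi, Gapdh1, Gapdh2, Pgk, Pglym78 and Eno to Pyk, which the annotation spells PyK. All 10 were found there. A region was counted at a gene when its summit lay in the gene span or within 1 kb of it.

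Chromatin immunoprecipitation with an antibody against GFP had been done on whole white prepupae, males and females pooled. Their line, a transgenic one, makes Hr38 fused to GFP at the C terminus. The stated age is 48 h, with no starting point named, and the labels do not say which promoter drives the fusion, in which cells it is made or whether the native Hr38 gene was intact. The series is 1 group of 2 biological replicates with no untreated or wild-type group, so no groups were compared, and whole animals mix all tissues. Replicate 1 has 30000 listed regions and replicate 2 has 29031 on the chromosome arms, the pooled list has 19279, and 768 peaks passed the authors' threshold on the irreproducible discovery rate (IDR), a measure of how well replicates repeat the ranking of peaks. All 768 have the position and score of a pooled region and are the 768 highest of the pooled list, so a peak in it was not thereby shown to repeat in each replicate. By their names, the replicate and pooled lists hold background regions too, so being listed there is not by itself binding. Each region carries a score, the authors' own value on an unstated scale, and a rank by that score within its list, where 1 is the highest. The depth of the libraries is unknown.

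Glycolysis turns glucose into pyruvate in a fixed chain of enzymes. The early steps, which consume ATP, phosphorylate and split the sugar, and the later steps, from glyceraldehyde-3-phosphate dehydrogenase to pyruvate kinase, yield NADH and ATP. Fly larvae run this chain at a high rate as they grow, and the nuclear receptor ERR is known to drive many of its genes in larvae. Hr38 is known from mutant larvae to affect carbohydrate metabolism and glycogen storage, and Nr4a proteins bind as monomers to an element called the NBRE. The white prepupa is the stage at which feeding has ended and metamorphosis begins.

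Of the 10 glycolytic enzyme genes, 3 had a peak past the authors' threshold, Gapdh2, Pgk and Eno. Pgi, Pfk, Ald1 and Tpi of the early steps had none, and neither did Gapdh1, Pglym78 and Pyk of the later steps. The peaks of Pgk and Eno also lay near start sites of other genes. Among all protein-coding genes 6.89% had a thresholded summit under the same rule. The median span of the members was 4019.50 bp against 2164.50 bp over all protein-coding genes, and a longer span takes in more summits, although Tpi, Gapdh1, Gapdh2 and Pglym78 were shorter than that median of all genes. With a summit within 1000 bp of an own transcription start site (TSS), a rule that does not grow with the span but does with the number of start sites, the same 3 members were counted, against 4.74% of all genes. When each thresholded summit was given to the 1 gene whose TSS lay closest, Gapdh2 and Eno were counted and Pgk was not, against 4.98% of all genes. The lowest score among the 768 peaks was 78.0, the median 106 and the highest 629. Pgk, at 111, was just above that median, Gapdh2, at 99.1, was below it, and Eno, at 82.5, was near the lowest.

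**Figure D1:**
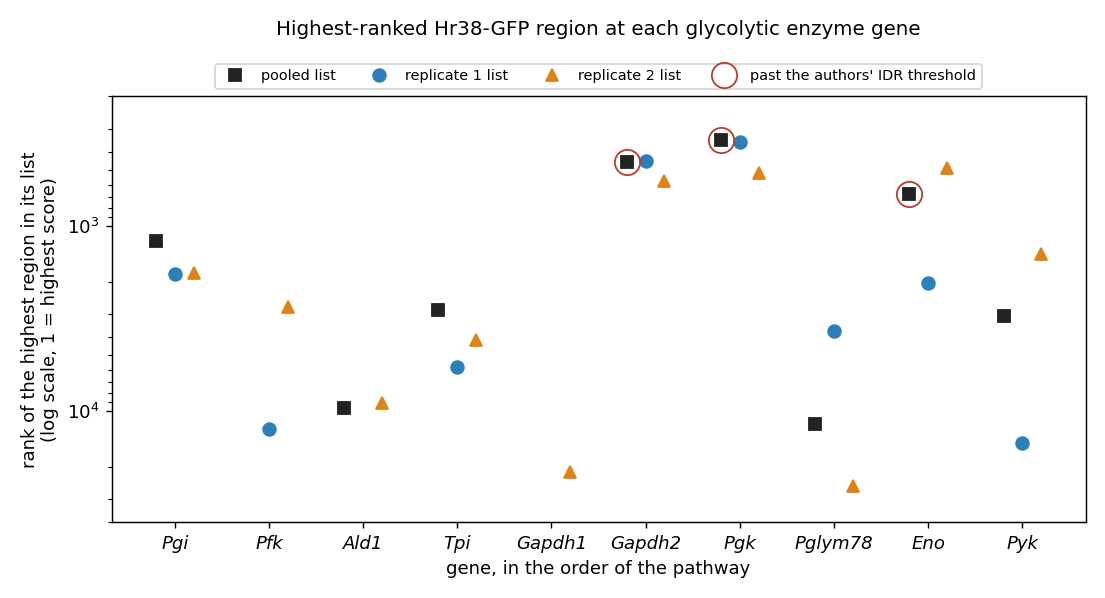
The highest-ranked region at each glycolytic enzyme gene is shown in the pooled list (squares), replicate 1 (circles) and replicate 2 (triangles), with the rank on a log scale, higher ranks toward the top, and no mark where a list had no region. Gapdh2, Pgk and Eno, circled in red, are the members with a thresholded peak, and Gapdh1 has a mark in replicate 2 alone, at rank 21462 of 29031.

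The sequences under these 3 peaks are shown because they carry the strongest signal at glycolytic genes. Each is read in the direction of the gene from the release 6 assembly (dm6 coordinates), from a window of 300 bases about the summit. Bases of annotated untranslated regions are left out, which at Eno leaves 124 bases on the side of the summit away from the gene. Capitals mark the nuclear receptor hexamer AGGTCA, the 1 motif of 5 searched on both strands that occurs in the printed bases.

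Gapdh2, chrX:15867841-15868140, plus strand: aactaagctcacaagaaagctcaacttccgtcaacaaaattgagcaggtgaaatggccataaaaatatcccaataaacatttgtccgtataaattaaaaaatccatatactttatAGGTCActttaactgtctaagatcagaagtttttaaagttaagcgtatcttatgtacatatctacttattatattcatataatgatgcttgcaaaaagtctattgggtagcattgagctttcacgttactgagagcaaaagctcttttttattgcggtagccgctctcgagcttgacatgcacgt
Pgk, chr2L:2751821-2752120, minus strand: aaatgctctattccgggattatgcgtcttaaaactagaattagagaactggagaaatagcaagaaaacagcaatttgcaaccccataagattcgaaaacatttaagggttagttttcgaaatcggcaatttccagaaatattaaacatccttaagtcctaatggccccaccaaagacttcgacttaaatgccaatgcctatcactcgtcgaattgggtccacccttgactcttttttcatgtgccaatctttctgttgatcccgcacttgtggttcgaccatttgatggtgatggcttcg
Eno, chr2L:1729763-1729886, minus strand: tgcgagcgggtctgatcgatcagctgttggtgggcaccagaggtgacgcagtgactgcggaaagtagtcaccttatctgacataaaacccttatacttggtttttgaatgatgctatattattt

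Gapdh2 and Gapdh1 both encode glyceraldehyde-3-phosphate dehydrogenase, the enzyme that makes NADH in glycolysis, and the lists set them far apart. Gapdh2 (FBgn0001092, on X at 15868145 to 15869661, plus strand) had a thresholded peak at 15867801 to 15868180, with a score of 99.1, rank 452 of 768 and a -log10 q of 2.48. Its summit lay 154 bp upstream of the TSS, in intergenic sequence, and the nearest TSS of another gene, CG16952, was 2192 bp away. Of the thresholded peaks at the members it alone had no other start site within 1 kb. Replicate 1 gave this site a score of 54.2 and rank 444, with a summit 180 bp upstream, and replicate 2 gave 44.1 and rank 575, with a summit 121 bp upstream. The site was thus in the upper 1.48% of the list of replicate 1 and the upper 1.98% of that of replicate 2. A second Gapdh2 region, past the 3' end, had a score of 30.1 in the pooled list and 16.5 in replicate 2 and was nearer to CG16952, at 171 and 151 bp.

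Gapdh1 (FBgn0001091, on 2R at 7791901 to 7793380, minus strand) had no region in the thresholded or pooled list or in replicate 1. In replicate 2 it had 2 regions, with scores of 14.2 and 13.5 and ranks of 21462 and 24311, near the lowest score of that list, 12.5. The coding sequences of the paralogs are identical at 884 of 996 positions (88.8%). Of the 300 promoter positions, 74 are the same without gaps (24.7%). That count cannot show how far the promoters differ, since an insertion shifts every later position. The labels and files do not say how reads that match both copies were treated. The Gapdh2 peak lay outside the coding sequence.

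Pgk encodes phosphoglycerate kinase, which makes the first ATP of the later steps, and it had more regions than any other member in the pooled list (6) and in both replicates (4 and 9). The gene (FBgn0250906, on 2L at 2746880 to 2753068, minus strand) has 5 annotated TSSs. Its thresholded peak, at 2751781 to 2752160, had the highest score of any member at 111, rank 342 of 768 and a -log10 q of 2.91. Replicate 1 gave this site a score of 59.7 and rank 352, and replicate 2 gave 46.4 and rank 517.

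The peak lay in an intron of the longest Pgk transcript, 1097 bp downstream of the 5'-most TSS of Pgk and 982 bp upstream of the next one. Its summit was nearer to a TSS of Bacc, a gene on the opposite strand that overlaps the start of Pgk, at 474 bp. In replicate 1 the summit was 405 bp from Bacc and in replicate 2 it was 480 bp. The peak can therefore not be assigned to Pgk rather than Bacc from its position.

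Further regions lay near internal start sites of Pgk. The highest of them had a score of 72.3 at rank 899 of the pooled list, under the lowest thresholded score of 78.0. It lay 176 bp upstream of the TSS of the shortest transcript, in a 5' untranslated region (UTR) of longer ones, and the nearest start of another gene, Cwc25, was 3565 bp away. Its scores were 41.2 in replicate 1 (rank 864) and 32.9 in replicate 2 (rank 1298). Regions 195 bp and 241 bp from other internal TSSs had pooled scores of 47.2 and 45.3 (-log10 q 0.277 and 0.239). Both were listed in each replicate, at ranks 4523 and 12327 in replicate 1 and 2468 and 4155 in replicate 2. A pooled region of 49.3 (rank 2553), 266 bp from Bacc and 889 bp from the 5'-most Pgk TSS, overlapped the thresholded peak. At the 5'-most TSS itself replicate 2 alone had a region, 5 bp from the TSS, with a score of 22.7 and rank 4811.

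Eno encodes enolase, which makes phosphoenolpyruvate. The gene (FBgn0000579, on 2L at 1724768 to 1729636, minus strand) had the lowest of the 3 thresholded peaks, at 1729569 to 1729948, with a score of 82.5, rank 671 of 768 and a -log10 q of 2.09. The libraries differed at this site. Replicate 2 gave it a score of 47.5 and rank 489, the highest rank of any member there, and replicate 1 gave 32.9 and rank 2030. The -log10 q was 1.95 in replicate 2 and 0.397 in replicate 1. The regions of the replicates overlapped, with summits 9 bp apart, although most summits are only the middle of their region.

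The Eno summit lay 123 bp upstream of the 5'-most TSS of Eno and 128 bp from the TSS of CG31937, which points the other way, and in replicate 1 CG31937 was the nearer, at 120 bp against 131 bp. The position also falls in the 3' UTR of a long transcript of Rrp40, a gene of the RNA exosome that starts inside Eno on the other strand and runs past the Eno TSS. A second Eno site was listed in both replicates, between the internal TSSs and in a 5' UTR. The pooled summit was 339 bp upstream of the nearest of them, and the summit of replicate 2 was 368 bp downstream of the other. It had a pooled score of 55.4 (rank 1769, -log10 q 0.582), with 26.2 in replicate 1 (rank 5787) and 28.7 in replicate 2 (rank 2111).

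**Figure D2:**
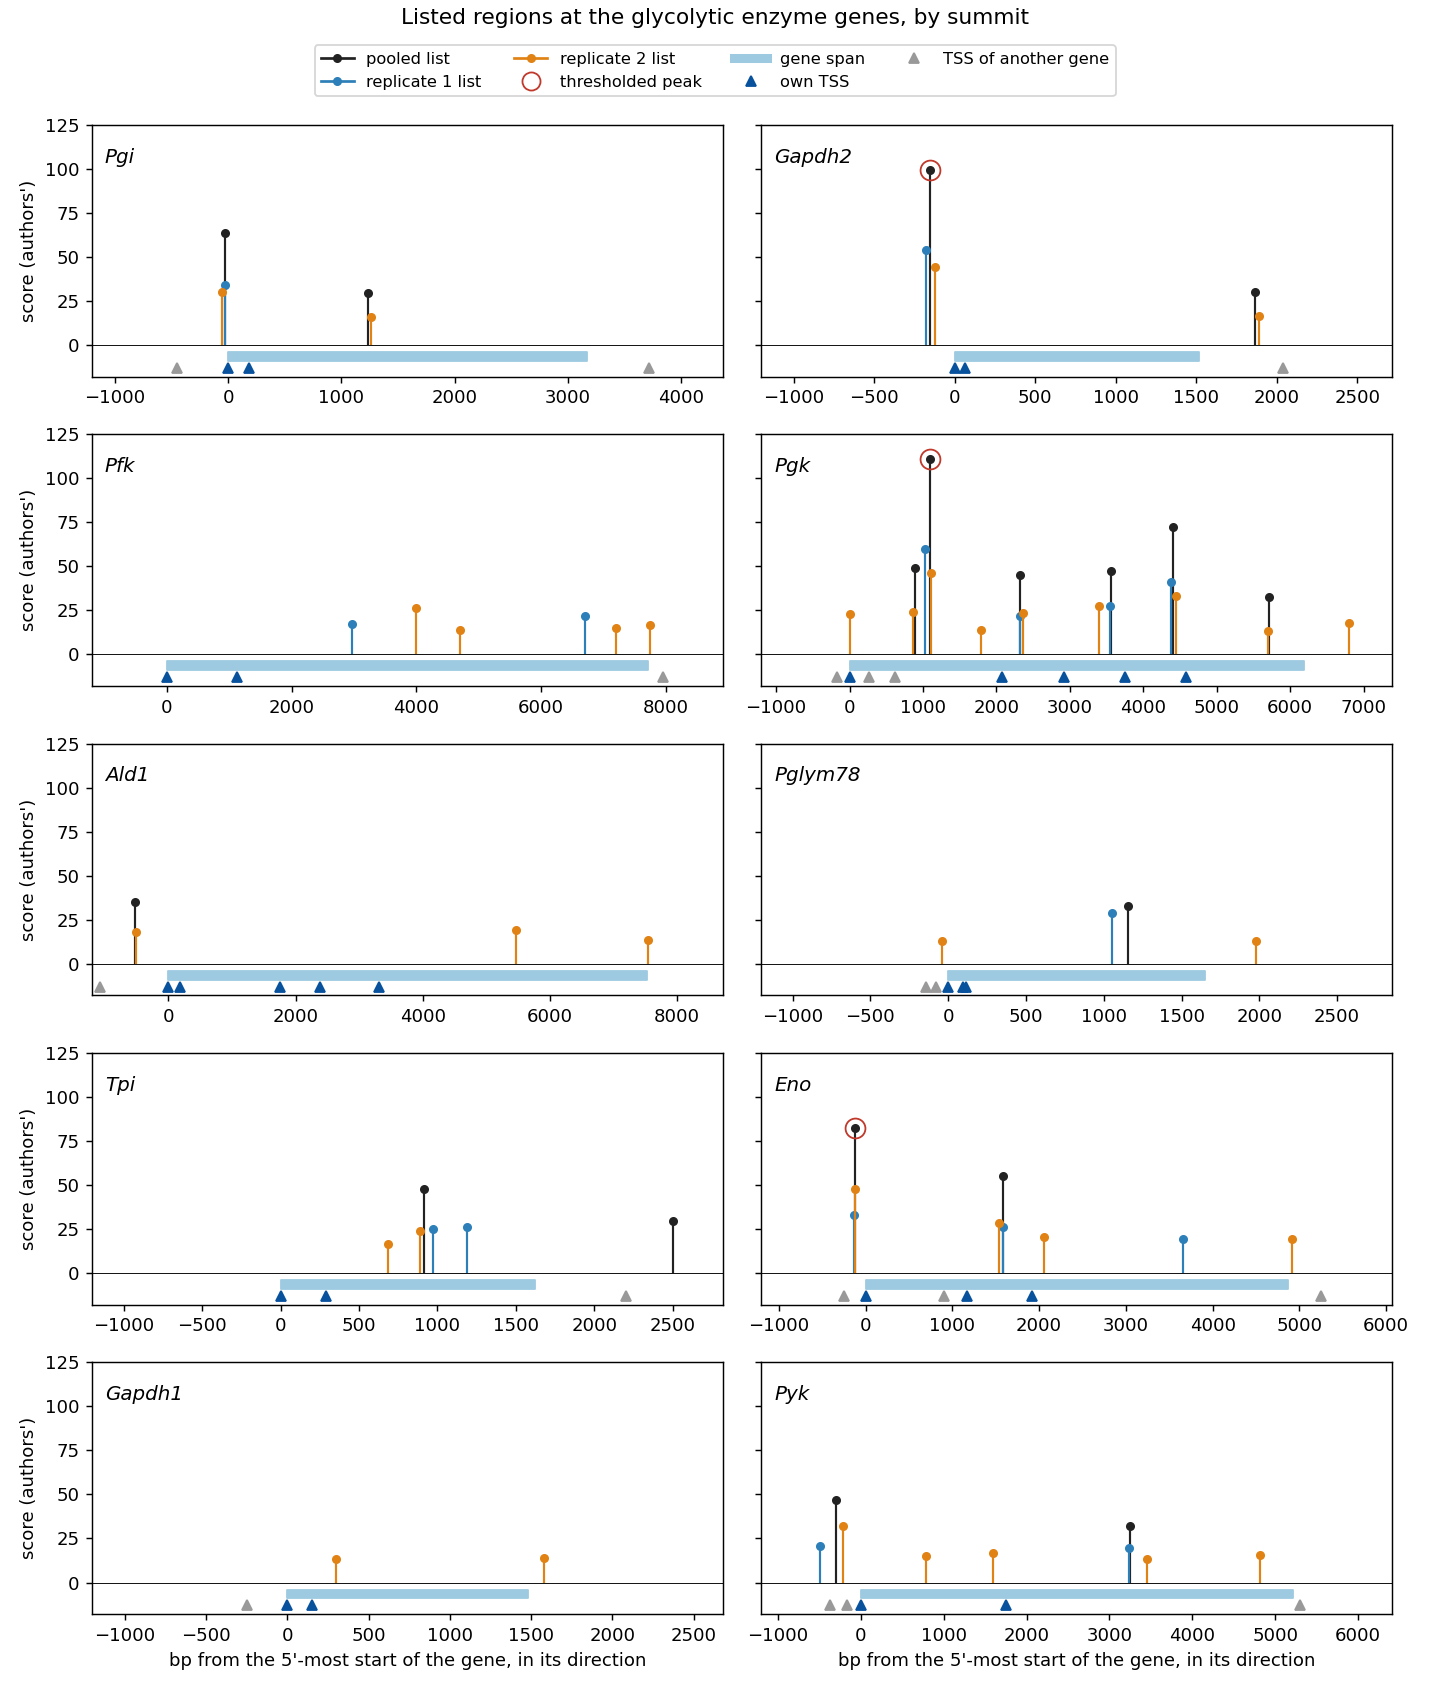
Each panel places the listed regions of a gene by the distance of their summit from its 5'-most start, in bp in the direction of the gene, with the authors' score as height for the pooled list (black), replicate 1 (blue) and replicate 2 (orange). Red circles mark thresholded peaks, the pale bar the gene span, dark blue triangles its own TSSs and grey triangles those of other genes. Scores of different lists are not on 1 scale, and the tallest marks are those of Pgk (111), Gapdh2 (99.1) and Eno (82.5).

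Pgi, glucose-6-phosphate isomerase, was the member nearest to the threshold among those without a thresholded peak. Its promoter region, on 2R at 8913909 to 8914288, had a pooled score of 63.5 and rank 1208 of 19279, with a -log10 q of 0.973. The summit lay 30 bp upstream of the TSS. Replicate 1 gave 33.8 and rank 1812 and replicate 2 gave 30.0 and rank 1798, so both libraries placed it at nearly the same height in their lists. The next gene, lin, had a TSS 425 bp from the pooled summit. A Pgi region in a coding exon was low, with a pooled score of 29.6 and 16.0 in replicate 2. The lowest score of the pooled list was 28.2 and its median 34.8.

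Tpi, triose phosphate isomerase (on 3R at 30132981 to 30134599, minus strand), had its highest region inside a coding exon, 625 bp downstream of the nearest TSS. The pooled score was 47.8, at rank 2862, with a -log10 q of 0.297. In replicate 1 the site had overlapping regions with scores of 26.2 and 25.1 and in replicate 2 it had regions with 23.7 and 16.4, all in coding sequence. The closest summits of the replicates were 78 bp apart. A second pooled region, of 29.6, lay past the 3' end of Tpi, in a coding exon of CG31029 and 298 bp from its TSS. It was in neither replicate list.

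At Pyk, pyruvate kinase, which makes the last ATP of the chain, the highest pooled region had a score of 46.8 at rank 3084, with a -log10 q of 0.265. Its summit was 302 bp upstream of the Pyk TSS but 75 bp from a TSS of Polr3F, which encodes a subunit of RNA polymerase III. The libraries differed here too, with a score of 32.1 and rank 1412 in replicate 2 and 20.5 and rank 14913 in replicate 1, and their summits were 270 bp apart. A second site listed in both replicates lay inside Pyk with a pooled score of 32.1.

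At Pfk, Ald1 and Pglym78 no region of one replicate shared a base with a region of the other. Pfk, phosphofructokinase, the main control point of glycolysis, had none in the pooled list. Its 2 regions in replicate 1 (17.2 and 21.6) and its 4 in replicate 2 (13.8 to 26.6, the highest at rank 2738, the upper 9.43% of the list, in an intron) shared no base, and none lay within 1000 bp of a Pfk TSS. The -log10 q of that highest region was 0.656. The Pfk regions of 21.6, 13.8, 14.8 and 16.4 were nearer to a TSS of dmpd, at 1250, 3255, 756 and 201 bp. The last of these lay 36 bp past the end of Pfk. Ald1, aldolase, had no region in replicate 1. Its pooled region, 534 bp upstream of the TSS and 537 bp from that of CG6154, had a score of 34.9 at rank 9598 and matched a replicate 2 region of 18.1. That pooled score was near the list median of 34.8, with a -log10 q of 0.0591. The highest Ald1 region of replicate 2, of 19.1 (rank 9033), lay in a 3' UTR, 2154 bp from the nearest TSS. Another, of 13.3, lay 14 bp past the end of the gene. Pglym78, phosphoglycerate mutase, had a coding-exon region of 29.0 in replicate 1 (rank 3692, the upper 12.3%) with a pooled score of 32.9. Its -log10 q was 0.239 in replicate 1 and 0.0441 in the pooled list. Replicate 2 had instead regions of 12.9 and 13.2. The region of 12.9 was 38 bp from the TSS of Pglym78 and equally far from that of CG11882. The region of 13.2 lay past the end of Pglym78, in a coding exon of eIF2D. Its summit was 1567 bp from the TSS of eIF2D and 1865 bp from that of Pglym78.

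Over the members as a group, 8 of 10 had a region in the pooled list, against 59.4% of all protein-coding genes. In replicate 1 it was 8 of 10 against 67.5%, and in replicate 2 it was all 10 against 72.5%. Most protein-coding genes are listed, so being listed says little about the members. A region of both replicates sharing at least 1 bp was found at 6 of 10 members (Pgi, Tpi, Gapdh2, Pgk, Eno and Pyk), against 38.8% of all genes. Among genes with a pooled region, the median of the highest score was 55.7 over the members and 40.1 over all genes, and 6 of the 8 members were above the latter. In replicate 1 the medians were 31.0 and 24.8, and in replicate 2 they were 28.3 and 20.1. In the thresholded list the order was the other way, with 99.1 over the 3 members and 111 over all genes with a peak, and 0 of the 3 were above the latter. These comparisons carry no test and are not adjusted for gene length.

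The libraries did not list glycolytic genes equally. The 10 windows, 60.9 kb in all, held 35 regions of replicate 2 and 16 of replicate 1, although the full lists are of similar length. Over all protein-coding genes the mean number of regions per gene was 2.27 in replicate 2 and 2.07 in replicate 1, and over the members it was 3.50 and 1.60. The direction against all genes in replicate 1 turned with the measure, since the median was 1.5 regions per member against 1.00 per gene, and the rate was 0.263 per kb of window against 0.231. In replicate 2 the median was 2.50 against 1.00 and the rate 0.574 against 0.253 per kb, with 9 of the 35 regions at Pgk. Depth may differ between the libraries but is unknown, and its part here was not tested. Of the 16 member regions of replicate 1, 12 (75.0%) shared a base with a region of replicate 2, against 34.3% of all replicate 1 regions at protein-coding genes. Of the 35 of replicate 2, 13 (37.1%) shared a base with replicate 1, against 33.8%.

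**Figure D3:**
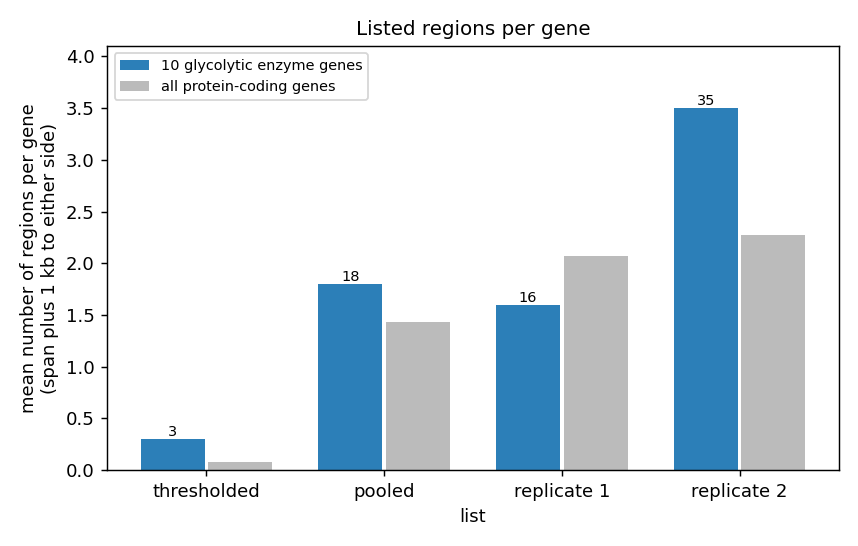
Bars give the mean number of listed regions per gene, in the span plus 1 kb to either side, for the 10 glycolytic enzyme genes (blue) and all protein-coding genes (grey) in each list, with the number of member regions above the blue bars. The members have 3.50 regions per gene in replicate 2 and 1.60 in replicate 1, where all genes have 2.27 and 2.07. By the median the members are above all genes in both replicates (2.50 and 1.5 against 1.00).

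When regions that overlap between lists were merged, the members held 38 sites. Of these, 11 were listed in both replicates and all 11 were also in the pooled list, while 22 were in replicate 2 only, 4 in replicate 1 only and 1 in the pooled list only. The sites in both replicates belonged to Pgk (4), Eno (2), Pyk (2), Pgi, Tpi and Gapdh2. Replicate 1 ranked 4 of the 11 higher and replicate 2 ranked 7 higher. The sites of Pgi, Gapdh2 and the thresholded peak of Pgk were close in rank between libraries. The sites of Eno and the site upstream of Pyk, which lay nearer to Polr3F, were far apart in rank. So was a Pgk site near an internal TSS, at 12327 in replicate 1 and 4155 in replicate 2.

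**Figure D4:**
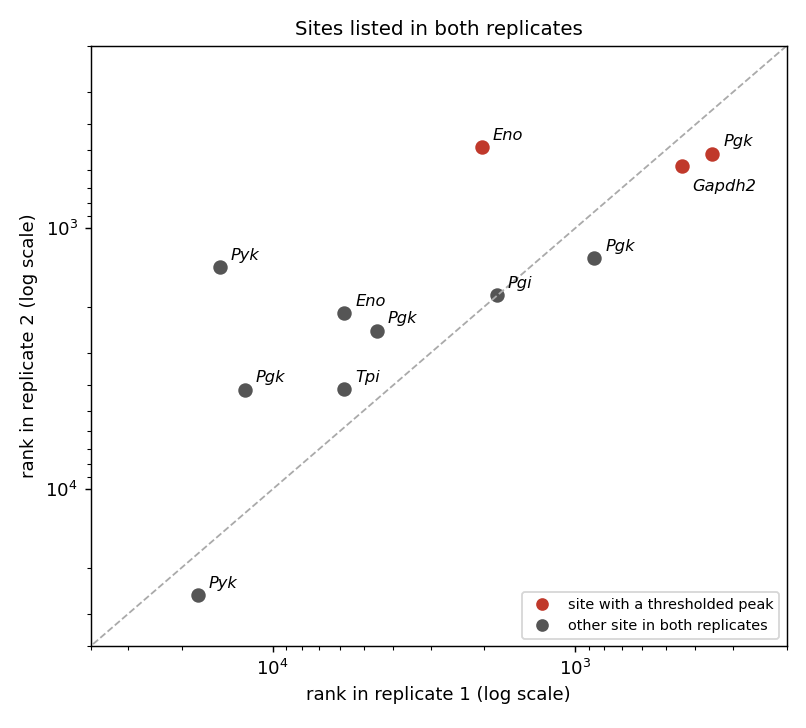
Each point is 1 of the 11 sites listed in both replicates, placed by its rank in replicate 1 and in replicate 2 on log scales with higher ranks toward the upper right, and red points hold a thresholded peak. Pgk (352 and 517) and Gapdh2 (444 and 575) lie near the dashed line of equal rank, and Eno (2030 and 489) lies above it.

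Many summits at the members lay close to a start site. Within 500 bp of a protein-coding TSS of any gene lay 12 of the 18 pooled regions, against 22.3% of the pooled regions at protein-coding genes under the same rule. In replicate 1 it was 9 of 16 against 17.1%, in replicate 2 it was 21 of 35 against 23.7%, and among the thresholded peaks it was all 3 against 55.4%. Pgk held 6 of the 18 pooled regions, all within that distance except its coding-exon region. Pooled regions nearest to the TSS of another gene were included, at Tpi (298 bp from CG31029), Gapdh2 (171 bp from CG16952), Pgk (474 and 266 bp from Bacc) and Pyk (75 bp from Polr3F). Coding exons held 6 of the 18 pooled regions, against 30.5% at all protein-coding genes, and none of the 3 thresholded peaks, against 0.580%. Ald1 and Pgk have 5 annotated start sites each, Pglym78 and Eno have 3, and the other members have 2. The longest span was 7718 bp among the members and 1965857 bp among all protein-coding genes. Neither the number of start sites nor the gene length was matched in these shares.

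The NBRE was not found under the 3 peaks, which says only that these letters are not in the windows. Windows of 300 bases about the summits of the 3 thresholded peaks held no match to it (AAAGGTCA), which 0.391% of the 768 thresholded windows hold, and no DRE (TATCGATA, 3.39%) or GAGA motif (GAGAGAG, 11.7%). Gapdh2 had the shorter hexamer AGGTCA, which also occurs inside the NBRE and is held by 3.12% of thresholded windows. Over the 18 pooled regions of the members, 6 windows held AGGTCA, 1 each at Pgi, Ald1, Tpi, Gapdh2, Pgk and Eno, against 7.43% of 19279 pooled windows. The 6 matches are a description of these windows and not sites of binding. Among promoters from 250 bases before to 50 after the 5'-most TSS, that of Pglym78 held the NBRE (0.666% of 13968 promoters do) and those of Gapdh2 and Pglym78 held AGGTCA (5.88%).

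The window at Tpi held the only extended element among the pooled member regions, TCAAGGTCA, which contains the hexamer and is a form bound by ERR and FTZ-F1 type receptors. It is shown because it lies at the middle of the highest pooled Tpi region and is coding sequence throughout. Its distance of 0 bp from the pooled summit is no finer than the region, since that summit is the middle of the region. The replicate summits lay outside the stretch shown, at 30133630 and 30133409 in replicate 1 and 30133708 and 30133912 in replicate 2. Of the pooled windows, 42 of 19279 (0.218%) held this motif, and of the 768 thresholded windows 0 did. Capitals mark the motif in the direction of the gene.

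Tpi, chr3R:30133670-30133698, minus strand: gccgagggccTCAAGGTCAtcgcctgcat

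Other genes of the pathway were followed by a list of 32, of which 4 (CG12229, Zw, ERR and sima) had a thresholded summit in the span or within 1 kb, against 6.89% of all genes. By a summit within 1000 bp of an own TSS it was 1 of 32, against 4.74%. None of the 4 hexokinase genes, which start glycolysis, had such a peak by these rules. Hex-C was counted with a 2 kb window or by any base of the region. Hex-A was counted when replicate 1 was left out. Hex-A had the highest of their regions, with a pooled score of 67.9 at rank 1044, 288 bp from its TSS, and 31.0 in replicate 1 against 41.7 in replicate 2. Of the 9 paralogs of members, CG12229, a pyruvate kinase paralog, was counted only through a peak with a score of 261 that lay 43 bp from a TSS of CG32176 and 2606 bp from its own.

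Among the 8 genes of branches off glycolysis, Zw, which encodes glucose-6-phosphate dehydrogenase of the pentose phosphate pathway, had the 1 thresholded peak. Its score of 168 and rank of 115 exceeded those of every glycolytic enzyme gene, and it ranked 90 in replicate 1 and 189 in replicate 2. The summit lay in an intron of Zw, 1138 bp from its nearest TSS and 838 bp from that of the antisense RNA gene asRNA:CR44512. Ldh, lactate dehydrogenase, had a promoter region below the threshold, with a pooled score of 63.5 at rank 1209, 104 bp from its TSS. None of the 5 genes of gluconeogenesis and its switch had a thresholded peak within 1 kb, and their highest pooled region was that of Pfrx (59.8). With a 5 kb window fbp was counted, and PCB was counted when replicate 2 was left out.

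Of the 6 regulators of glycolytic genes, sima, the fly HIF alpha factor, had a thresholded peak in an intron (score 118, 3478 bp from its TSS). The span of sima is long, 30058311 to 30121798 on 3R, and its window held 15 pooled regions. Its highest region in replicate 2 was another, 1600 bp from a sima TSS (rank 496). ERR had a thresholded peak 22 bp from a TSS of Atg18a and 208 bp from its own. The ERR site ranked 124 in replicate 1 (score 91.9) and 9551 in replicate 2 (score 18.8), and ERR was not counted when replicate 1 was left out. bigmax, the partner of the sugar sensor Mondo, came close to the threshold, with a pooled score of 74.6 at rank 847, 118 bp from its TSS, while in replicate 1 the summit was nearer to Hmu.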

How the data were processed

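Per the labels, the data are 2 biological replicates of 1 group. Peak lists were deposited as narrowPeak tables. Per the text notes deposited beside them, the authors made a list for each replicate and for both pooled, from alignments against a control, and drew the thresholded list from these. No aligner, caller or IDR cut-off is named in the labels or notes. The authors' score and their -log10 q value are used as deposited, as is the summit offset.

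Only the dm6 lists were used, on the chromosome arms, which leaves out 5 mitochondrial regions of replicate 2. The dm3 lists were not used here. Gene models were from Ensembl release 115, sequence from the release 6 assembly, and no region passed the end of an arm. Pyk was matched through its synonym PyK in RefSeq. Ranks count regions with a higher score, and positions are counted from 1. Most summits are the middle of their region (698 of 768 thresholded peaks within 1 bp), so distances are no finer than regions of about 380 bp.

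Counts over members are set beside the same counts over 13968 protein-coding genes, with no test. The rule for named genes takes all members, genes with a TSS nearer to a described summit, and the other pathway genes with a thresholded peak. Hex-A, Hex-C, Ldh, fbp, PCB, Pfrx and bigmax were named after their values were seen. The members and lists were chosen with earlier results of these data known. Counting was checked on planted summits. The tools were Python 3.11.15, numpy 2.4.6, pandas 2.3.3 and matplotlib 3.10.9.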

Additional observations from a re-analysis of the deposited data

How the results depend on the processing

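The count of members with a thresholded peak (3) was the same with windows of 500 bp, 2 kb and 5 kb about the gene, with any base of the region in place of the summit, and within 1 kb of an own TSS. Over all genes the share was 6.89%. It ran from 6.16% at 500 bp to 13.4% at 5 kb, and was 4.74% by own TSSs. The count was 1 with the gene span only (Pgk, 3.31% of all genes) and 1 with the upper 384 peaks by score (Pgk, 3.83%), 2 with the nearest TSS (4.98%) and 4 with the 1536 highest pooled regions (12.0%), which add Pgi. Leaving out a replicate, with the 768 highest regions of the other, gave 2 to 3, and Eno was the member lost without replicate 2 (6.82% of all genes, and 6.84% without replicate 1). The count of other pathway genes (4) was 2 with the gene span only, 1 by own TSSs, 2 by the nearest TSS, 8 with the 1536 highest pooled regions, 6 at 5 kb, and 4 to 5 with a replicate left out. Members with a region in the pooled list ran from 6 to 10 over the alternatives (39.7% to 88.1% of all genes), in replicate 1 from 6 to 10 (48.8% to 92.2%) and in replicate 2 from 8 to 10 (50.2% to 93.6%), each lowest with the gene span only. Of the 29 highest scores per member and list, 12 were unchanged with the gene span only (9 moved and 8 had no value), 28 at 500 bp, 25 at 2 kb and 18 at 5 kb, where 11 moved. The causes of these shifts were not tested. With the depth unknown, a member missing from a list cannot be read as unbound.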
